A study of Mus musculus with 5 samples.

Results

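The nuclei described here came from mouse mesenteric white adipose tissue (MWAT) and were picked by 5 genes that mark interstitial cells of Cajal. A nucleus was selected when it had at least 4 unique molecular identifiers (UMIs, each standing for 1 captured transcript) summed over Etv1, Kit, Ano1, Pcdh17 and Dkk2. At least 2 of these genes had to be detected, with at least 1 UMI of Etv1 or Ano1. A nucleus could hold at most 1 UMI summed over 6 genes of other cells, namely Flt1 and Ptprb (endothelium), Mrc1 (macrophages), Upk1b (mesothelium), Acvr1c (adipocytes) and Cdh19 (glia). It also needed at least 200 detected genes and at most 10% mitochondrial UMIs. The rule took 534 of 19768 MWAT nuclei within the limits on genes and mitochondrial UMIs (2.70%, 95% interval 2.48 to 2.94), out of 75891 such nuclei in 5 depot libraries. Measured values chose these nuclei, so their levels of the selecting and excluding genes are a description only.

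The 534 selected nuclei were set against the other 19234 MWAT nuclei, and then against smooth muscle-type and Pdgfra Kcnn3-type nuclei of the same library. All came from 10-week-old wild-type male mice fed chow, which had been flushed with heparin in saline. The protocol gives the strain as C57BL/6J, while the strain field of MWAT reads C57BL/7J. Tissue of 10 mice was pooled, with the lymph nodes beside the depot removed, and at least 8000 nuclei were loaded into 1 droplet library that reads the 3′ ends of transcripts. With 1 pooled library there is no replicate. No test was made, and every interval given is an exact 95% interval of counting error alone.

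Interstitial cells of Cajal are mesenchymal cells of the gut wall that pace and relay the contraction of gut smooth muscle. They depend on Kit, a receptor tyrosine kinase whose signal keeps the transcription factor Etv1 stable, and they fire through Ano1, a chloride channel opened by calcium. They lie in a layer between the muscle coats and among the muscle bundles, in contact with enteric nerves, smooth muscle and a second interstitial cell that carries Pdgfra and the potassium channel Kcnn3. White fat is not a tissue they are known for, and the labels of the series do not list them among its cell types.

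The name fitted only a portion of the selected nuclei. All MWAT nuclei were clustered on genes other than the 11 of the rule, which gave 32 clusters. Of the selected nuclei, 243 (45.5%, 41.2 to 49.8) lay in a cluster led by Esrrb and Sctr, and 124 (23.2%, 19.7 to 27.0) in a cluster led by Hs3st4 and Prkcq, in which Dkk2 was also high. A further 113 (21.2%, 17.8 to 24.9) lay in a mesothelial-like cluster, 23 (4.31%, 2.75 to 6.39) in a neuron-like cluster, and 31 (5.81%) were scattered over 13 other clusters. Kit, the defining marker, was detected in 239 of the 243 Esrrb-Sctr nuclei and in 105 of the 124 Prkcq-Dkk2 nuclei. It was detected in 4 of the 113 mesothelial-like nuclei, 3 of the 23 neuron-like nuclei and 8 of the 31 scattered ones. The first 2 clusters, called Kit-rich below, held 367 of the 534 selected nuclei (68.7%).

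**Figure D1:**
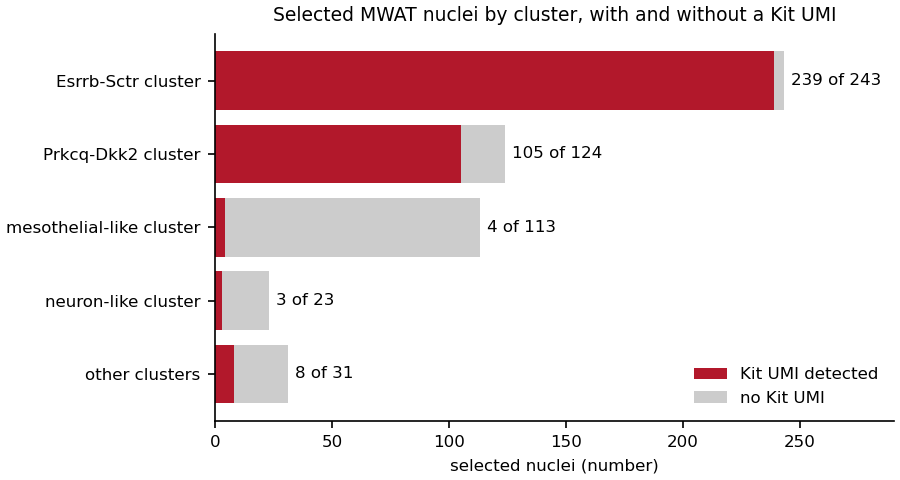
Number of selected MWAT nuclei (x axis) in each cluster (y axis), split into nuclei with a Kit UMI (red) and without one (grey). Kit was detected in 239 of 243 and 105 of 124 nuclei of the 2 Kit-rich clusters, and in 4 of 113 nuclei of the mesothelial-like cluster.

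Over whole clusters, selected or not, the selecting genes were measured on nuclei that had been grouped without them. These clusters were picked because they held the most selected nuclei. Selected nuclei made up 243 of 488 Esrrb-Sctr and 124 of 138 Prkcq-Dkk2 nuclei. High levels of the selecting genes there are thus in part set by the rule, and the values are a description. Kit summed to 1647 CPM (UMIs of the gene in each 1000000 UMIs of the group; 1555 to 1743) over all 488 nuclei of the Esrrb-Sctr cluster. It summed to 1289 CPM (1152 to 1438) over all 138 nuclei of the Prkcq-Dkk2 cluster, against 5.31 CPM (3.24 to 8.19) over the 2714 mesothelial-like nuclei. Adipocyte-type nuclei, which should lack it, held 22.5 CPM (19.7 to 25.7). Kit was thus far above the level of adipocyte-type nuclei in both Kit-rich clusters and below it in the mesothelial-like cluster.

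Ano1 did not separate the groups in this way. It stood at 1489 CPM in the whole Esrrb-Sctr cluster, 1466 CPM in the Prkcq-Dkk2 cluster and 798 CPM in the mesothelial-like cluster, against 72.1 CPM in adipocyte-type nuclei. Etv1 stood at 240 CPM, 4056 CPM and 337 CPM in these 3 clusters, against 29.5 CPM in adipocyte-type nuclei, so the Prkcq-Dkk2 cluster was by far the highest. Pcdh17, a protocadherin, and Dkk2, a secreted Wnt inhibitor, reached 1293 and 1157 CPM in the Prkcq-Dkk2 cluster. In the Esrrb-Sctr cluster each had 3 UMIs in all (4.11 CPM, 0.847 to 12.0), and in the mesothelial-like cluster each had 7 UMIs (1.86 CPM).

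**Figure D2:**
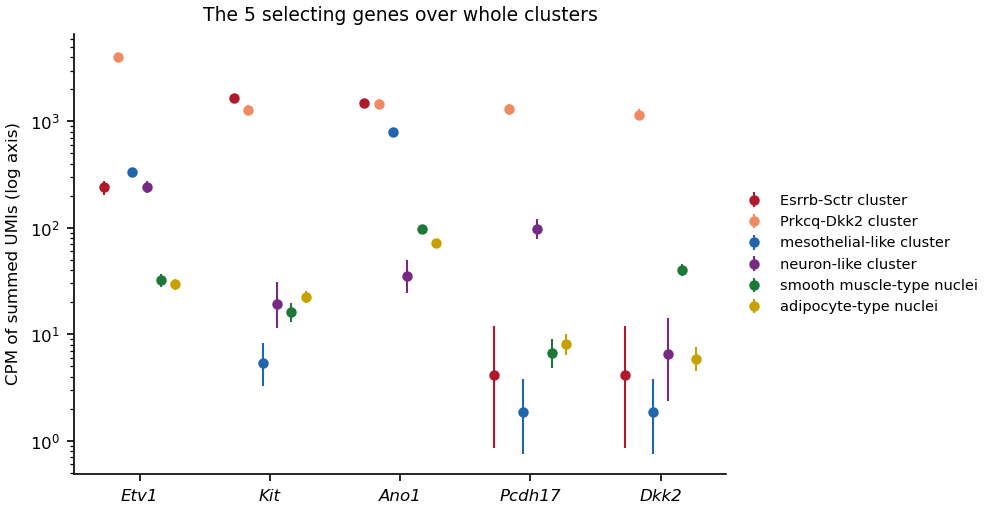
CPM of summed UMIs (log axis) of the 5 selecting genes in 4 whole clusters, in smooth muscle-type and in adipocyte-type nuclei, with 95% counting intervals. Kit is above 1000 CPM in the 2 Kit-rich clusters only, while Ano1 is also at 798 CPM in the mesothelial-like cluster, and Pcdh17 and Dkk2 reach 1000 CPM only in the Prkcq-Dkk2 cluster.

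The selected nuclei held 1512 UMIs of Etv1 in 358 nuclei, 1235 of Kit in 359, 1474 of Ano1 in 486, 360 of Pcdh17 in 121 and 310 of Dkk2 in 109. Only 62 nuclei held all 5 genes, and 326 held 2 of them. The pairs differed by cluster. Kit and Ano1 without the other 3 genes accounted for 153 of the 243 Esrrb-Sctr nuclei, and Pcdh17 or Dkk2 for 109 of the 124 Prkcq-Dkk2 nuclei. Etv1 and Ano1 without Kit accounted for 108 of the 113 mesothelial-like nuclei. The median sum of selecting UMIs was 6 and the highest 51. There were 125 nuclei just inside the threshold, with 4 UMIs, and 185 nuclei just outside it, with 3. Of those just inside, 47 lay in the Esrrb-Sctr cluster and 52 in the mesothelial-like cluster, and of those just outside, 45 and 85. The limit on excluding genes removed 151 nuclei, of which 83 were mesothelial-like.

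Depth and other cells' RNA differed between the groups. The median was 1597 UMIs in selected nuclei and 1272 in other MWAT nuclei, and 18.9% and 15.7% scored as likely doublets (2 nuclei in 1 droplet). Of the selected nuclei, 85 (15.9%) also met the smooth muscle rule, 61 (11.4%) a mesothelial rule and 19 (3.56%) an adipocyte rule. Of the other 19234 MWAT nuclei, 3905, 2225 and 5128 met these rules. The last 2 rules hold Upk1b and Acvr1c, which the selection rule limits. Barcodes that recurred in other libraries were 6 of the 534 selected and 285 of all 19770 in MWAT. The 10 smooth muscle markers summed to 2869 CPM in selected nuclei and 4571 CPM in other MWAT nuclei, and to 1735 CPM in adipocyte-type nuclei. The 7 gut lining markers summed to 237 and 1407 CPM, and the 7 adipocyte markers to 498 and 3030 CPM. The adipocyte markers include the excluding gene Acvr1c (17.6 and 337 CPM), so the rule in part sets their low sum. Mast cells also carry Kit. Summed over 7 mast cell markers, selected nuclei held 10.7 CPM, from 11 UMIs, and other MWAT nuclei 14.9 CPM. The sum was 12.3 CPM in selected Esrrb-Sctr, 21.7 CPM in selected mesothelial-like and 0 UMIs in selected Prkcq-Dkk2 nuclei. Of the 7 markers 0 passed the filter on low counts, so these sums are near the floor. With likely doublets removed from all groups, 0 of the 65 ratios named against other MWAT, smooth muscle-type or Pdgfra Kcnn3-type nuclei turned direction and 29 moved by over 1.5 times. The part that free RNA has in the results below was not tested.

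Against all other MWAT nuclei, 8295 genes could be compared, and the 11 genes of the rule were left out. The selected nuclei were 2-fold or more higher for 521 genes (6.28%) and 2-fold or more lower for 706 genes (8.51%). The median log2 ratio over all genes compared was -0.07. The 25 genes with the highest ratios lay between 13.2-fold and 44.8-fold higher. For 24 of them the Kit-rich clusters gave most of the UMIs. With likely doublets removed the ratios of 24 of the 25 were larger, by 1.22 to 2.23 times, and that of Gal smaller.

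The steepest was Pde4c, an enzyme that breaks down cyclic AMP, at 151 CPM in selected and 3.38 CPM in other MWAT nuclei (44.8-fold, 34.5 to 58.3). Hs3st4, which adds sulfate to heparan chains, had 168 and 3.97 CPM (42.3-fold, 33.2 to 54.1). Esrrb, an orphan nuclear receptor, had 345 and 11.3 CPM (30.5-fold, 26.2 to 35.6). These genes differed in where they came from. Pde4c was at 68.8 CPM in the selected Esrrb-Sctr nuclei and 560 CPM in the selected Prkcq-Dkk2 nuclei. Hs3st4 was almost all from Prkcq-Dkk2 nuclei, which held 168 of its 172 UMIs, and Esrrb from Esrrb-Sctr nuclei, which held 349 of 353. When the whole Esrrb-Sctr cluster was taken in place of the rule, Hs3st4 and Prkcq turned to ratios of 0.139 and 0.248, and Fgf12 to 0.582.

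Several of the 25 are receptors. Sctr, the receptor for secretin, had 597 CPM in selected and 29.3 CPM in other MWAT nuclei (20.4-fold, 18.3 to 22.6). Tacr1, the receptor for substance P, had 288 and 20.4 CPM (14.1-fold, 12.2 to 16.2), and Bmpr1b, a receptor for bone morphogenetic proteins, 869 and 61.3 CPM (14.2-fold, 13.1 to 15.4). The glutamate receptor subunits Gria1 and Grik4 were 18.7-fold (16.2 to 21.5) and 13.8-fold (11.5 to 16.5) higher. Sctr, Tacr1, Bmpr1b and Gria1 came almost wholly from Esrrb-Sctr nuclei, with 8.89, 0, 0 and 4.44 CPM in the selected Prkcq-Dkk2 nuclei. Kl, a co-receptor for fibroblast growth factors, was 28.9-fold higher (20.1 to 41.6), also from Esrrb-Sctr nuclei, which held 61 of its 65 UMIs.

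Others move ions or pass on signals. Kcnq5, a potassium channel subunit that opens near the resting potential, was the most abundant of the 25 apart from Gal, at 4564 CPM in selected and 289 CPM in other MWAT nuclei (15.8-fold, 15.2 to 16.4). Slc8a3, an exchanger of sodium for calcium, had 253 and 15.4 CPM (16.4-fold, 14 to 19.1), and Kcng3, a potassium channel subunit, 147 and 8.39 CPM (17.6-fold, 14.2 to 21.6). Prkcq, protein kinase C theta, is a marker of Cajal cells of the gut and had 199 and 9.75 CPM (20.4-fold, 17.0 to 24.5). Thbs4, a secreted thrombospondin, had 122 and 5.75 CPM (21.2-fold, 16.7 to 26.9). The remaining names were Crnde, Lrp1b, Rit2, Fat3, Frmpd1, Cux2, Gna14, Rasd2, Mpped2 and Fgf12, between 13.4-fold and 26.1-fold higher.

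Gal, the neuropeptide galanin, was the exception. It had 6184 CPM in selected and 469 CPM in other MWAT nuclei (13.2-fold, 12.8 to 13.6), but 94.8% of its 6336 UMIs came from the 23 neuron-like nuclei, and 1369 from a single one. Without the neuron-like nuclei the ratio turned to 0.80, and with the Kit-rich clusters alone to 0.932. With likely doublets removed it was 6.82.

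**Figure D3:**
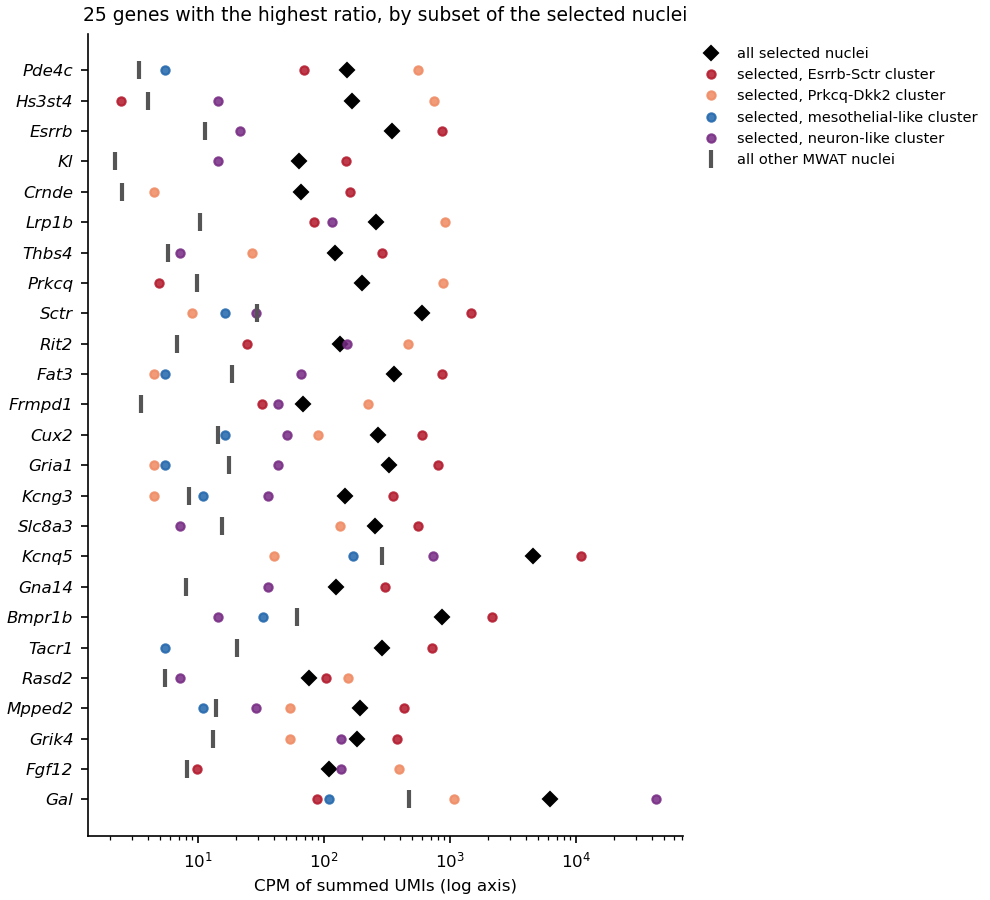
CPM of summed UMIs (log axis) of the 25 genes with the highest ratio of selected over other MWAT nuclei: all selected nuclei (diamonds), selected nuclei of 4 clusters (circles) and all other MWAT nuclei (bars). A cluster with no UMI of a gene has no circle. Esrrb, Sctr, Kcnq5 and Bmpr1b are high in Esrrb-Sctr nuclei, Hs3st4, Prkcq and Lrp1b in Prkcq-Dkk2 nuclei, and Gal in neuron-like nuclei.

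The lowest ratios among genes with at least 200 CPM in other MWAT nuclei included genes of fat cells and of the gut lining. The rule limits the adipocyte gene Acvr1c, while the other MWAT nuclei include 5128 adipocyte-type nuclei. Low ratios of fat cell genes are thus in part set by the rule, and the values are a description. Mecom, a transcription factor, had 14.6 CPM in selected and 232 CPM in other MWAT nuclei (ratio 0.0630, 0.0352 to 0.104). Pparg, the master regulator of fat cells, had 42.0 and 384 CPM (0.109, 0.0791 to 0.147), and Adrb3, the beta-3 adrenergic receptor of fat cells, 44.9 and 394 CPM (0.114, 0.0834 to 0.152). Zg16, a secreted protein of the gut lining, had 26.4 and 244 CPM (0.108, 0.0713 to 0.158), but a ratio of 0.695 with likely doublets removed. Slc1a3, Pdzd2, B3galt2 and Nrg4 had ratios between 0.105 and 0.118.

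The 10 further Cajal cell markers, which the rule did not use, were read beside the name. Of these, 7 were 2-fold or more higher in selected than in other MWAT nuclei and 0 lower, with a median log2 ratio of 2.58, where 6.28% of all genes were higher, 8.51% lower and the median was -0.07. The list had been chosen with earlier results of these data known, so it is no independent check of the name. A gene low elsewhere can also pass the filter on low counts through its level in the selected nuclei. The 7 were Prkcq, Gpr20, Thbs4, Lrig1, Tacr1, Slc12a2 and Hand1. The list summed to 3523 CPM in the selected Esrrb-Sctr nuclei, 2648 CPM in the selected Prkcq-Dkk2 nuclei, 223 CPM in the selected mesothelial-like nuclei and 267 CPM in the selected neuron-like nuclei. Other MWAT nuclei held 425 CPM, smooth muscle-type nuclei 645 CPM and adipocyte-type nuclei 262 CPM. The list is not particular to Cajal cells, since Pdgfra Kcnn3-type nuclei held 3528 CPM. The summed level was thus high in the Kit-rich nuclei, and close to that of adipocyte-type nuclei in the mesothelial-like and neuron-like nuclei.

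Each Kit-rich cluster was also set against other MWAT nuclei on its own. The selected Esrrb-Sctr nuclei were 2-fold or more higher for 427 of 4202 genes (10.2%) and lower for 693 (16.5%). Esrrb had 857 CPM in them and 11.3 CPM in other MWAT nuclei (76.0-fold, 65.1 to 88.7), Kl 150 and 2.19 CPM (68.3-fold, 47.2 to 98.7) and Irx5, a homeobox factor, 108 and 1.71 CPM (63.3-fold, 41.2 to 97.2). Of the 10 further Cajal cell markers 8 passed the filter on low counts, and Prkcq and Cd44 did not. Lrig1, a receptor-like protein of the cell surface, had 1658 and 119 CPM (13.9-fold, 12.8 to 15.1), while Slc12a2 had 36.8 and 78.3 CPM (0.470, 0.263 to 0.778).

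The selected Prkcq-Dkk2 nuclei were higher than other MWAT nuclei for 172 of 2152 genes (7.99%) and lower for 372 (17.3%). Edn3, the peptide endothelin 3, had 102 and 0.488 CPM (210-fold, 103 to 441), Hs3st4 747 and 3.97 CPM (188-fold, 147 to 241) and Pde4c 560 and 3.38 CPM (166-fold, 126 to 218). Gpbar1, the cell surface receptor for bile acids, had 93.3 and 1.18 CPM (78.8-fold, 43.5 to 140). Edn3 and Gpbar1 rest on 23 and 21 UMIs in the Prkcq-Dkk2 nuclei and fall under the filter on low counts, so they are not among the 172. Of the 10 further Cajal cell markers Prkcq, Gpr20, Lrig1 and Slc12a2 passed the filter, in part through their high level in these nuclei, and 6 did not. Of those 6, Hand1 and Cd44 had 116 and 102 CPM in the Prkcq-Dkk2 nuclei, Thbs4 and Gucy1a1 26.7 CPM each, Gucy1b1 17.8 CPM and Tacr1 0 UMIs. The clusters were built on these genes, so these values describe them.

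The 2 Kit-rich clusters were also set against each other. They were built on genes outside the rule, so differences between them are in part set by the clustering, and the values describe them. Between their selected nuclei 2038 genes could be compared, and the Esrrb-Sctr nuclei were 2-fold or more higher for 331 (16.2%) and 2-fold or more lower for 172 (8.44%) than the Prkcq-Dkk2 nuclei. The depths were close, with medians of 1540 and 1634 UMIs.

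A first group of genes was held by Esrrb-Sctr nuclei and barely by Prkcq-Dkk2 nuclei. Kcnq5 had 11025 CPM in Esrrb-Sctr and 40.0 CPM in Prkcq-Dkk2 nuclei (276-fold, 145 to 603), with a UMI in 100% and 7.26% of nuclei. Gpc6, a glypican of the cell surface, had 4360 and 8.89 CPM from 1775 and 2 UMIs (491-fold, 136 to 4054). Bmpr1b had 2157 CPM against 0 UMIs, which makes it at least 162-fold higher with 3 UMIs as the floor, and the exact interval starts at 131. Chl1, a cell adhesion molecule of nerve cells, had 1815 CPM against 0 UMIs (at least 136-fold higher at that floor, interval from 110). Tacr1 and Esrrb had 717 and 857 CPM in Esrrb-Sctr nuclei and 0 UMIs in Prkcq-Dkk2 nuclei. The pacemaker channel Hcn4 had 201 CPM against 0 UMIs (at least 15.1-fold higher at that floor, interval from 12.0), and Pln, the phospholamban that restrains the calcium pump of the internal store, 587 and 4.44 CPM from 239 and 1 UMIs (132-fold, 23.5 to 5240).

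A second group was held by Prkcq-Dkk2 nuclei. Hs3st4 had 2.46 CPM in Esrrb-Sctr and 747 CPM in Prkcq-Dkk2 nuclei, from 1 and 168 UMIs (ratio 0.00329, 8.28e-05 to 0.0186). Prkcq had 4.91 and 880 CPM, from 2 and 198 UMIs (0.00558, 0.000672 to 0.0204). Slc12a2, which loads chloride into the cell together with sodium and potassium, had 36.8 and 849 CPM (0.0434, 0.0238 to 0.0734). Pde3a, another enzyme that breaks down cyclic AMP, had 695 and 5084 CPM (0.137, 0.120 to 0.156). Cacna1c, the pore of the L-type calcium channel of smooth muscle, had 101 and 547 CPM (0.184, 0.126 to 0.264), and the gap junction gene Gja1, 233 and 760 CPM (0.307, 0.236 to 0.397).

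Some genes were high in both. Gpr20, an orphan receptor of Cajal cells, had 265 CPM in Esrrb-Sctr and 293 CPM in Prkcq-Dkk2 nuclei (ratio 0.905, 0.660 to 1.25), against 16.0 CPM in other MWAT nuclei. Cacna1d, another L-type calcium channel pore, had 594 and 582 CPM (1.02, 0.822 to 1.27), against 49.5 CPM in other MWAT nuclei. The transcription factors Hand1 and Foxf1 of gut mesenchyme had 135 and 116 CPM (1.17, 0.721 to 1.94) and 120 and 124 CPM (0.967, 0.596 to 1.60), against 14.7 and 22.2 CPM. Atp2a3, a calcium pump of the internal store, had 403 and 355 CPM (1.13, 0.862 to 1.5), against 49.1 CPM. For these 5 genes the interval of the ratio between the Kit-rich clusters lay within 2-fold, and both clusters stood well above other MWAT nuclei.

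Kit-positive nuclei were also split by the selecting genes alone. There were 160 nuclei with Kit and Ano1 only and 100 nuclei with Kit and Pcdh17 or Dkk2. Of the 160, 153 were Esrrb-Sctr nuclei, so the split regroups largely the same nuclei, and its values are a description and no separate support. Kcnq5 had 11305 CPM in the Kit and Ano1 nuclei and 315 CPM in the Pcdh17 or Dkk2 nuclei (35.9-fold, 28.3 to 46.3), and Sctr 1441 and 36.5 CPM (39.5-fold, 19.8 to 92.2). Esrrb had 835 and 13.7 CPM from 204 and 3 UMIs (61.0-fold, 20.6 to 298). Prkcq had 4.09 and 780 CPM from 1 and 171 UMIs (ratio 0.00525, 0.000132 to 0.0296), and Slc12a2 40.9 and 757 CPM (0.0540, 0.0254 to 0.102). Gpr20 stayed level here too, at 254 and 274 CPM (0.927, 0.639 to 1.34), as did Cacna1d at 593 and 502 CPM (1.18, 0.917 to 1.53). The smooth muscle genes Acta2 and Myh11 were lower in the Kit and Ano1 nuclei, at 639 and 1474 CPM and at 381 and 684 CPM.

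**Figure D4:**
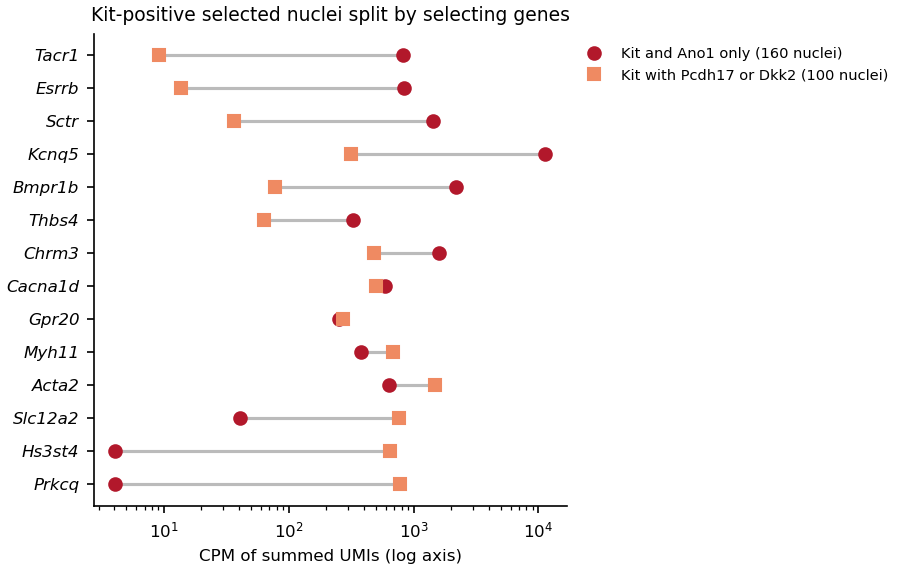
CPM of summed UMIs (log axis) of 14 genes in Kit-positive selected nuclei with Ano1 as the only other selecting gene (circles, 160 nuclei) and in those with Pcdh17 or Dkk2 (squares, 100 nuclei). Tacr1, Esrrb, Sctr and Kcnq5 are far apart in 1 direction, Prkcq and Hs3st4 in the other, and Gpr20 and Cacna1d nearly coincide.

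The shares of nuclei with a UMI were read at equal depth. After thinning each nucleus to 1000 UMIs, Esrrb was found in 55.4% of 204 Esrrb-Sctr nuclei (48.3 to 62.3; 67.9% unthinned) and in 0 of 98 Prkcq-Dkk2 nuclei, against 0.378% of adipocyte-type nuclei. Prkcq was found in 0 of 204 and in 57.1% of 98 nuclei (46.7 to 67.1; 70.2% unthinned), against 0.334% of adipocyte-type nuclei. Kit was found in 84.8% and 64.3%, against 1.62% of adipocyte-type nuclei, but its share is set by the rule. Thinning left out 39 Esrrb-Sctr, 26 Prkcq-Dkk2 and 634 adipocyte-type nuclei, and the adipocyte-type median was 1676 UMIs. For Esrrb and Prkcq the shares in adipocyte-type nuclei were far below those in the cluster that held the gene. Both are leading genes of clusters built on genes outside the rule, so their shares describe the clusters.

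The rule took 243 of the 488 nuclei of the Esrrb-Sctr cluster, and the 245 it left were shallower, with medians of 1540 and 1068 UMIs. In the same order, 13.2% and 24.9% scored as likely doublets. Of 3152 genes compared between the selected and the unselected nuclei of this cluster, 17 were 2-fold or more higher (0.539%) and 85 lower (2.70%). Esrrb had 857 CPM in selected and 782 CPM in unselected nuclei (ratio 1.10, 0.930 to 1.29), Sctr 1471 and 1342 CPM (1.10, 0.968 to 1.24) and Thbs4 287 and 263 CPM (1.09, 0.820 to 1.46). These 3 are leading genes of the cluster, so their near-equal levels are in part set by the clustering. Kit itself stood at 2196 and 955 CPM, a difference that the rule sets. In the Prkcq-Dkk2 cluster the rule took 124 of 138 nuclei (89.9%).

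Gene lists for the work of Cajal cells were then read against other MWAT nuclei, beside the 6.28% of all genes that were 2-fold or more higher and the 8.51% that were lower. These shares are the background for list counts of all selected nuclei against other MWAT nuclei. List counts against the 2 neighbours have the shares given with those comparisons. Counts are over the members that passed the filter on low counts, which a gene low elsewhere can pass through its level in the selected nuclei. Some genes on the lists are nerve genes, so each list was also counted against other MWAT nuclei without the 23 neuron-like nuclei. In that setting 5.28% of all genes were 2-fold or more higher and 8.78% lower.

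Among the calcium genes, the voltage-gated channels and the calcium stores moved in a minority of members over all selected nuclei, and in both directions. Cacna1d and the channel subunit Cacnb4 were 2 of 9 voltage-gated channel genes that were 2-fold or more higher, at 7.76-fold (6.92 to 8.68) and 7.28-fold (6.40 to 8.27). Cacna2d3 was lower (0.389, 0.300 to 0.497). Of 19 store and entry genes 3 were higher, namely Slc8a3, Pln at 9.65-fold (8.32 to 11.2) and Atp2a3 at 5.01-fold (4.37 to 5.73), and 4 were lower. Among the lower ones were the release channels Ryr3 (0.218, 0.145 to 0.316) and Itpr2 (0.356, 0.246 to 0.498), and the median log2 ratio of the list was 0.02. Of 8 chloride channels and transporters only Slc12a2 was higher (2.75-fold, 2.39 to 3.16), Ano1 being left out as a selecting gene. In the selected Esrrb-Sctr nuclei alone, 2 of 8 voltage-gated channel genes were higher and 5 lower (median log2 ratio -1.21). Of 17 store and entry genes 4 were higher and 5 lower (0.49), beside 10.2% and 16.5% of all genes. In the selected Prkcq-Dkk2 nuclei, 2 of 7 and 2 of 12 were higher and 1 and 5 lower (0.58 and -0.52), beside 7.99% and 17.3%.

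Cation and potassium channels had larger shares over all selected nuclei. Of 11 cation and sodium channel genes 7 were higher and 2 lower (median log2 ratio 1.61), and without the neuron-like nuclei 5 of 9 were higher. Hcn4 was 12.1-fold higher (9.26 to 15.7), and the mechanically gated channel Piezo2 had 706 CPM in selected and 162 CPM in other MWAT nuclei (4.35-fold, 4.02 to 4.70). Trpc4 and Trpc1, channels opened downstream of receptors, were 3.01-fold (2.52 to 3.58) and 3.05-fold (2.55 to 3.63) higher. Trpm3 and Scn3a counted as higher, but over 50% of their UMIs came from the neuron-like nuclei. Of 17 potassium channel genes 8 were higher and 1 lower (median 1.0), and without the neuron-like nuclei 6 of 14. Beside Kcnq5 these included Kcnt2 at 6.11-fold (5.49 to 6.79) and Kcnh2 at 5.46-fold (4.45 to 6.65). Kcnma1, the large-conductance channel of smooth muscle, was lower, at 139 and 300 CPM (0.462, 0.388 to 0.545). In the selected Esrrb-Sctr nuclei alone, 5 of 8 cation and sodium channel genes were higher and 2 lower (median 2.10). Of 10 potassium channel genes 5 were higher and 4 lower (0.73). In the selected Prkcq-Dkk2 nuclei, 1 of 3 and 2 of 5 were higher and 1 and 2 lower (-0.78 and 0.65), Piezo2 and Kcnq5 among the lower. Hcn4, Trpc4 and Piezo2 were 2-fold or more higher in Esrrb-Sctr than in Prkcq-Dkk2 nuclei.

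Nerve transmitter receptors differed in which nuclei held them. Of 46 on the list 18 could be compared, of which 8 were higher and 2 lower (median log2 ratio 0.54), and without the neuron-like nuclei 6 of 15 were higher. Chrm3, the muscarinic receptor for acetylcholine, had 839 CPM in selected and 102 CPM in other MWAT nuclei (8.23-fold, 7.62 to 8.89). It stood at 1754 CPM in Esrrb-Sctr and 507 CPM in Prkcq-Dkk2 nuclei (3.46-fold, 2.84 to 4.26). The serotonin receptor Htr4 was 9.03-fold higher (6.62 to 12.2), with 50 of its 59 UMIs in Esrrb-Sctr nuclei. Htr3a, another serotonin receptor, was 4.50-fold higher, with all 36 UMIs in neuron-like nuclei. Gabrb1, also among the 8, had 402 CPM in mesothelial-like nuclei, 4.91 CPM in Esrrb-Sctr nuclei and 8.89 CPM in Prkcq-Dkk2 nuclei.

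The list with genes of nitric oxide and cyclic nucleotide signalling had 10 of 22 higher and 3 lower (median log2 ratio 0.76), and again 10 and 3 of 22 without the neuron-like nuclei. Prkg1, the kinase that cyclic GMP turns on, had 3855 CPM in selected and 1183 CPM in other MWAT nuclei (3.26-fold, 3.15 to 3.37). The phosphodiesterases Pde9a, Pde7b, Pde3a and Pde4b were 10.5-fold (9.35 to 11.8), 7.96-fold (7.44 to 8.51), 5.67-fold (5.36 to 5.99) and 5.29-fold (4.98 to 5.63) higher. The 2 Kit-rich clusters held different ones, since Pde4b stood at 2683 CPM in Esrrb-Sctr and 298 CPM in Prkcq-Dkk2 nuclei, the opposite order from Pde3a. The subunits of the nitric oxide receptor, Gucy1a1 and Gucy1b1, had 206 and 194 CPM in Esrrb-Sctr nuclei and 26.7 and 17.8 CPM in Prkcq-Dkk2 nuclei, against 75.1 and 63.3 CPM in other MWAT nuclei.

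Adhesion and guidance genes, the longest list, gave the highest count of any list. Of 45 axon guidance and synaptic adhesion genes 26 were higher and 3 lower (median log2 ratio 1.45). Of these 26, 10 had over 50% of their UMIs in the neuron-like nuclei, and without those nuclei 18 of 36 were higher and 6 lower (median 1.04). Nrxn3 was 10.3-fold higher (9.30 to 11.5), with 92.2% of its UMIs in the Kit-rich clusters, and Cntn3 8.66-fold (7.80 to 9.61). Ncam1 was 6.11-fold higher (5.47 to 6.82), and stood at 830 CPM in Esrrb-Sctr and 8.89 CPM in Prkcq-Dkk2 nuclei. Unc5c, a netrin receptor, was 6.21-fold higher (5.07 to 7.56), with 41.8 CPM in Esrrb-Sctr and 391 CPM in Prkcq-Dkk2 nuclei. Of 9 protocadherins and cadherins 5 were higher and 0 lower (median 1.03), led by Fat3.

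The Kit pathway itself did not stand apart. Of 25 genes of Kit and ERK signalling compared, Etv5 (4.97-fold, 3.49 to 6.92) and Prkcq were higher, Lyn and Stat5a lower, and the median log2 ratio was 0.01. Kit and Etv1 were left out as selecting genes. Of 24 transcription factors of gut mesenchyme 4 were higher and 3 lower (median 0.39). Hand1, Foxf1, Meis2 and Osr1 were 5.66-fold, 3.60-fold, 2.55-fold and 2.02-fold higher, and Ebf1 and Ebf2, factors of fat cell formation, had ratios of 0.144 and 0.229. Among 11 Hox genes only Hoxb3 passed 2-fold (2.29-fold, 1.89 to 2.74), with a median of 0.58. Of 3 gap junction genes only Gja1 did (2.29-fold, 2.03 to 2.58).

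Secreted signals and matrix were mixed. Of 21 Wnt pathway genes 4 were higher and 3 lower (median log2 ratio 0.18). Rspo3 and Sfrp1, an enhancer and an inhibitor of Wnt signals, were at 572 and 224 CPM in Esrrb-Sctr nuclei and 31.1 CPM and 0 UMIs in Prkcq-Dkk2 nuclei. Rspo2 was at 2.46 and 187 CPM, from 1 and 42 UMIs, the opposite order. Of 31 matrix genes 4 were higher and 6 lower (median -0.12). Col4a6, Col4a5 and Col4a3, chains of basement membrane collagen, were 7.03-fold (6.46 to 7.63), 4.94-fold (4.43 to 5.49) and 4.51-fold (3.53 to 5.69) higher. Col4a6 was held by Esrrb-Sctr nuclei at 1415 CPM and by mesothelial-like nuclei at 582 CPM, against 22.2 CPM in Prkcq-Dkk2 nuclei. Tnc, tenascin C, was at 73.7 CPM in Esrrb-Sctr and 627 CPM in Prkcq-Dkk2 nuclei. Of 24 growth factor genes 6 were higher and 4 lower (median -0.36).

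Immediate early genes, which rise within minutes of stimulation or tissue handling, were 0 higher and 5 lower of 13 compared (median log2 ratio -0.74). Klf2 had 52.7 CPM in selected and 132 CPM in other MWAT nuclei (0.400, 0.300 to 0.523), and Btg2, Zfp36, Klf4 and Klf6 had ratios between 0.383 and 0.457.

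**Figure D5:**
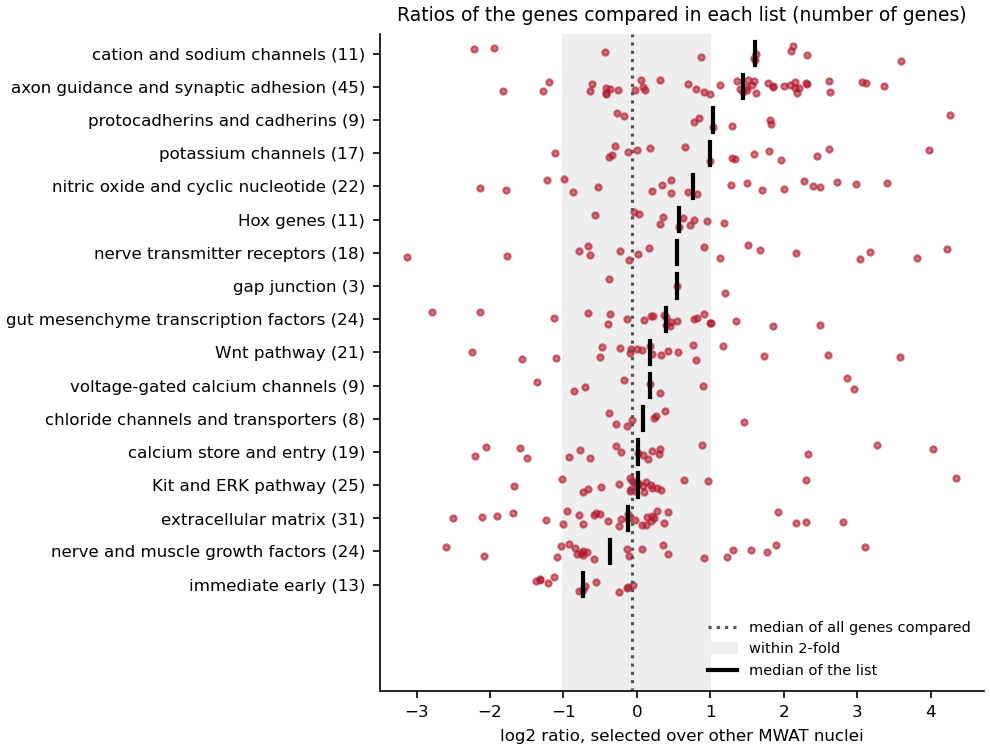
Log2 ratio of selected over other MWAT nuclei for each gene compared (points) in 17 lists, with the list's median (black bar), the median of all genes (dotted line, -0.07) and the range within 2-fold (grey). Cation channels (median 1.61) and adhesion genes (1.45) lie furthest right, and immediate early genes (-0.74) furthest left.

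The 113 mesothelial-like nuclei went against the name. They are set beside 2225 mesothelial-type nuclei, which were picked by Upk1b, Upk3b, Msln, Wt1 and Lrrn4 and so are high in them. Wt1, a transcription factor of mesothelium, had 1049 CPM in the selected mesothelial-like nuclei and 751 CPM in mesothelial-type nuclei. Upk3b, a uroplakin, had 679 and 940 CPM, and Msln, mesothelin, 179 and 439 CPM. The selected Esrrb-Sctr nuclei had 31.9, 39.3 and 24.6 CPM of these 3 genes. Kit had 4 UMIs in all 113 nuclei (21.7 CPM, 5.92 to 55.7), against 22.5 CPM in adipocyte-type nuclei. Fgf1, a fibroblast growth factor, had 989 CPM and Isl1, a homeobox factor, 544 CPM, against 167 and 81.5 CPM in other MWAT nuclei.

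Within the mesothelial-like cluster, selected nuclei were set against the 2601 others on genes outside the rule. Of 1905 genes compared, 8 were 2-fold or more higher (0.420%) and 10 lower (0.525%). The GABA receptor subunits Gabrb1 and Gabra3 were among the higher ones, at 402 and 153 CPM (2.64-fold, 2.04 to 3.37) and at 549 and 266 CPM (2.07-fold, 1.67 to 2.54). The laminin chain Lama4 (0.474, 0.318 to 0.680) and the guidance factor Sema3c (0.450, 0.314 to 0.626) were among the lower ones. The median depth was 1564 UMIs in selected and 1286 UMIs in unselected nuclei of this cluster.

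The 23 neuron-like nuclei were deep, with a median of 4822 UMIs, and 78.3% of them scored as likely doublets. They carried nerve cell genes, as did the whole neuron-like cluster of 253 nuclei. Uchl1 had 1596 CPM in the selected and 1578 CPM in all neuron-like nuclei, and Snap25 635 and 790 CPM. Nos1, which makes nitric oxide, had 708 and 285 CPM, and the peptides Vip and Gal had 1697 and 736 CPM and 43352 and 17127 CPM. Of the selecting genes, Etv1 was detected in 22 of the 23 nuclei, Pcdh17 in 21, Ano1 in 6, Kit in 3 and Dkk2 in 3. The 9 enteric neuron markers summed to 6231 CPM in them, to 29.5 CPM in selected Esrrb-Sctr nuclei and to 88.9 CPM in selected Prkcq-Dkk2 nuclei, against 67.4 CPM in adipocyte-type nuclei. Of their 907 UMIs in selected nuclei, 863 were in the neuron-like ones.

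Smooth muscle-type nuclei were the first of 2 neighbours compared. A nucleus was taken with at least 4 UMIs over Myh11, Actg2, Acta2, Tagln and Lmod1, at least 2 of them detected and at least 1 UMI of Myh11, the excluding limit kept and the selection rule not met, which gave 3905 nuclei. Of 7951 genes compared, selected nuclei were 2-fold or more higher for 744 (9.36%) and lower for 472 (5.94%). With the Kit-rich clusters alone the first count was 405 (7.19% of genes compared) and with Kit-positive nuclei alone 412 (7.11%), in sums of fewer UMIs. The highest ratios again belonged to genes of the Kit-rich clusters. Hs3st4 had 172 UMIs in selected and 6 UMIs in smooth muscle-type nuclei (167-fold by CPM, 75.4 to 463), Sctr 597 and 12.7 CPM (47.0-fold, 37.0 to 60.5) and Esrrb 345 and 7.85 CPM (43.9-fold, 32.3 to 60.8). Crnde, Lrp1b, Prkcq, Gna14 and Rit2 were 39.7-fold to 78.3-fold higher.

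Among the lowest ratios, Ryr3, a calcium release channel, had 27.3 CPM in selected and 504 CPM in smooth muscle-type nuclei (0.0542, 0.0360 to 0.0785), Pde1c, a phosphodiesterase turned on by calcium, 14.6 and 248 CPM (0.0591, 0.0330 to 0.0977), and Grm8, a glutamate receptor, 68.3 and 970 CPM (0.0704, 0.0548 to 0.0891). Atcayos, Rgs1, Dpp10, Fam189a1 and Nt5e had ratios of 0.0606 to 0.0812. Of 18 calcium store and entry genes 3 were higher and 6 lower (median log2 ratio -0.28), and of 10 voltage-gated calcium channel genes 2 were higher and 5 lower (-0.86). Of 44 axon guidance and synaptic adhesion genes 28 were higher and 3 lower (median log2 ratio 1.75, against 0.04 over all genes). These counts keep the neuron-like nuclei, and a count without them was not made for this comparison. Against other MWAT nuclei, 10 of the 26 higher genes of this list had most of their UMIs in the neuron-like nuclei. Of 11 Hox genes 0 were higher and 0 lower, with a median of 0.25.

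Pdgfra Kcnn3-type nuclei, with at least 3 UMIs over Pdgfra and Kcnn3 and both detected, were the second neighbour and numbered 241. Of 3233 genes compared, selected nuclei were 2-fold or more higher for 309 (9.56%) and lower for 314 (9.71%). Sorcs1, a sorting receptor, had 265 and 3.28 CPM from 272 and 1 UMIs (81.0-fold, 14.4 to 3210; 26.9-fold with likely doublets removed), and Kcnq5 4564 and 164 CPM (27.8-fold, 21.1 to 37.6; 86.1-fold). Asic2, Rit2, Efnb2, Gabra3, Tmem132b and Sh3rf2, each with 1 or 2 UMIs in the Pdgfra Kcnn3-type nuclei, had ratios from 33.0 to 41.4, with lower interval bounds from 5.81 to 11.3. With likely doublets removed these ratios lay between 11.3 and 35.4. Over the settings described at the end, Asic2 ranged from 2.65 to 80.6 and Rit2 from 4.05 to 57.8. Gabra3 was high in the selected mesothelial-like nuclei, as given above. Gabra3, Tmem132b and Sh3rf2 fall under the filter on low counts and are not among the 309.

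The Pdgfra Kcnn3-type nuclei held a group of their own. Robo2, a guidance receptor, had 59.5 CPM in selected and 4239 CPM in Pdgfra Kcnn3-type nuclei (ratio 0.0140, 0.0107 to 0.0182), and Adra1a, an alpha-1 adrenergic receptor, 3.90 and 449 CPM (0.00869, 0.00233 to 0.0228). Thbs2 had 9.76 and 662 CPM (0.0147, 0.00696 to 0.0277), and Car8, Lama1, Musk, Colgalt2 and Tmem200a had ratios of 0.00850 to 0.0201. Of 25 matrix genes 2 were higher and 14 lower (median log2 ratio -1.25, against -0.12 over all genes). Only 5 selected nuclei met both rules.

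The rule was also counted in the other 4 depots. It took 52 of 12523 peri-heart nuclei (0.415%, 0.310 to 0.544), 18 of 12780 perirenal nuclei (0.141%, 0.0835 to 0.223), 8 of 18514 epididymal nuclei (0.0432%, 0.0187 to 0.0851) and 7 of 12306 subcutaneous nuclei (0.0569%, 0.0229 to 0.117). The part of depth in these shares was not tested, and MWAT had the lowest median depth, 1279 UMIs against 1573 to 2643 in the others. Kit was detected in 0, 1, 2 and 1 of these nuclei, a count that the rule in part sets. All 52 peri-heart nuclei held Etv1 and Ano1, and 51 of them a UMI of a mesothelial marker. Over whole libraries Kit stood at 64.6 CPM in MWAT and between 5.35 and 10.1 CPM in the other depots.

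On the mouse build GRCm38 (GENCODE vM21), Kit lies on chromosome 5 from 75574916 to 75656722, Ano1 on chromosome 7 from 144588549 to 144751974 and Etv1 on chromosome 12 from 38779380 to 38870484. Esrrb lies on chromosome 12 from 86361117 to 86521628, and Prkcq on chromosome 2 from 11172108 to 11301222.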

How the data were processed

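Nuclei of 5 depots were sequenced as 1 pooled library each, and the nuclei of MWAT are analysed here. The files deposited by the authors hold raw UMI counts for 32285 genes in each nucleus. Per the file headers they come from Cell Ranger 6.0.1, and the submitters' processing notes name mm10. Which annotation release was used is not given in the sources used here. MWAT held 29739505 UMIs in 19770 barcodes, with at least 500 UMIs in each barcode.

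Counts were summed over the nuclei of a group and written as CPM. A gene was compared where the mean of both CPM values was worth at least 20 UMIs in the smaller sum. Intervals are exact at 95% (Poisson for a level, conditional binomial for a ratio, Clopper-Pearson for a share), and a sum of 0 was taken at 3 UMIs. Clusters were made without the 11 genes of the rule (2000 variable genes, 30 components, 20 neighbours, Leiden resolution 1), and 2 were named "-like" from marker lists. Doublets were scored against simulated ones, marked at a rate of 0.8% per 1000 nuclei, and kept except in 1 alternative. Adipocyte-type and mesothelial-type nuclei had at least 4 UMIs over 5 markers of the type, with 2 or more detected.

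Named were the 25 highest and 8 lowest ratios against other MWAT nuclei, the 8 highest and lowest against each neighbour, list members past 2-fold, and up to 10 leading genes of each cluster. A named higher gene needed 20 UMIs in the higher group and a UMI in 10% of its nuclei, so a few lie under the filter for comparison. Gene models without a symbol were not named. The selection rule, gene lists and comparisons were chosen with earlier results of these data known. Genes named in each Kit-rich cluster and between the 2, in the split by selecting genes and within the mesothelial-like and neuron-like nuclei were chosen after their values were seen. Ratios and intervals were tested on simulated counts with known folds. The tools were scipy 1.17.1, numpy 2.4.6, scikit-learn 1.9.0, pandas 2.3.3 and leidenalg 0.10.2 under Python 3.11.15. Scaling factors for 1 alternative came from edgeR 4.0.16 under R 4.3.3, and figures from matplotlib 3.10.9.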

Additional observations from a re-analysis of the deposited data

How the results depend on the processing

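No paired analysis was possible because each depot was 1 pooled library. The named ratios were recomputed under 18 settings, which gave 1138 values. Of these 916 moved by less than their counting interval, 214 moved by more and 8 turned direction. The turned ones were Hs3st4 (0.139), Prkcq (0.248), Fgf12 (0.582) and Gal (0.165) against other MWAT nuclei, and Hs3st4 (0.218) and Prkcq (0.327) against smooth muscle-type nuclei, with the whole Esrrb-Sctr cluster in place of the rule. Gal also turned to 0.932 with the Kit-rich clusters alone and to 0.80 without the neuron-like cluster.

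The share of MWAT nuclei, 2.70% as reported, was 3.64% at 3 or more selecting UMIs, 1.59% at 6 or more, 3.47% with no limit on excluding genes, 2.27% without nuclei that also met the smooth muscle rule, and 2.47% for the leading cluster. It was 1.82% with a Kit UMI required, 1.86% in the Kit-rich clusters alone and 2.13% without the mesothelial-like cluster. The share in the Esrrb-Sctr cluster, 45.5% as reported, was 40.1% at 3 or more UMIs, 38.1% with no excluding limit, 66.6% with Kit required, 66.2% in the Kit-rich clusters and 57.7% without the mesothelial-like cluster. The settings on Kit, on the Kit-rich clusters and without the mesothelial-like or neuron-like cluster were added after seeing the data.

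The number of genes 2-fold or more higher than in smooth muscle-type nuclei was 744 as reported (9.36% of those compared). It was 466 at 6 or more UMIs (8.00%), 412 with Kit required (7.11%) and 405 in the Kit-rich clusters (7.19%). With a filter of 50 UMIs the genes higher and lower were 296 and 351 against other MWAT nuclei, 365 and 297 against smooth muscle-type nuclei, and 113 and 132 against Pdgfra Kcnn3-type nuclei, since fewer genes were compared. With 1 UMI enough they were 8860 and 2344 of 24027 genes, 6551 and 1403 of 20696, and 1840 and 5181 of 17566. With likely doublets removed, 401 genes were higher and 650 lower than in other MWAT nuclei, which is 6.28% and 10.2% of 6388 compared. Beyond the change in nuclei or genes that each setting makes, the cause of these moves was not tested. Depth limits genes under the filter, and pooling of 10 mice leaves the spread between mice unknown.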
